A study of Homo sapiens with 3 samples.

Results

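The cancer-testis antigen families are genes whose transcripts are found mainly in the male germ line and, ectopically, in tumours such as melanoma. They were taken here as all rows of the deposited tables whose symbol begins with MAGEA to MAGEH, GAGE, XAGE, PAGE, SSX, CTAG or BAGE followed by the family's own letters or digits, together with PRAME, CT45A1 and CTCFL. This gave 73 of 20344 genes, of which 69 lie on chromosome X and 4 elsewhere. No BAGE gene was among the rows. SSX2IP matched the SSX pattern by its name, but it encodes a protein that binds SSX2 and is no SSX gene, so counts are given with it and, where it matters, without it.

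Messenger RNA was sequenced from A375, an established human melanoma line that carries mutant BRAF. The tested library is titled A375-VR, Prop, and the library it is set against is titled A375, Prop. They are called here the A375-VR library and the A375 library. A further sample, A375-VR with DMSO, was not analysed here. Prop stands in the titles of both libraries, and the series title is about propranolol, a blocker of beta-adrenergic receptors, and about resistance to the BRAF inhibitor vemurafenib. The extraction protocol of each sample speaks of A375-VR cells given DMSO or 20 µM propranolol during 24 h, while the A375 library has A375 as its title and as its labelled cell line. A difference between the libraries can therefore be one of cell line, of treatment, of culture or of library preparation, and these cannot be told apart. The labels do not say how the A375-VR cells were derived or whether they are 1 clone. There was 1 library per group, so no test of a condition was possible, and no p-value is given.

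Cancer-testis genes are known to be silenced in somatic cells by DNA methylation of their promoters, and demethylating agents switch many of them on in melanoma cells. Their peptides are presented on HLA class I molecules, which made MAGEA3, PRAME and NY-ESO-1 (encoded by CTAG1A and CTAG1B) targets of vaccines and T cell therapies. Type I MAGE genes (MAGEA, MAGEB and MAGEC) are the germline-restricted ones, while type II MAGE genes (here MAGED, MAGEE, MAGEF and MAGEH) are transcribed in many tissues. Many proteins of both types bind RING ubiquitin ligases through the MAGE homology domain.

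Levels are in FPKM, a read or fragment count scaled to gene length and to the library total, so they can be compared between genes. The library totals recovered from them were 16438482 for the A375-VR library and 17811339 for the A375 library, and recovered reads per gene are given where they bear on a value. Intervals after a ratio are 95% exact Clopper-Pearson intervals on recovered reads. They cover counting error only and compare these libraries, not conditions. Recovered reads are the smallest whole numbers that give a gene's FPKM. They are minima, and an interval is too wide where the true count is a multiple. A count of 0 allows up to 3 reads, which for a gene of 1 kb is 0.182 FPKM in the A375-VR library and 0.168 FPKM in the A375 library. Of the 10 melanocyte lineage markers, 4 reached 1 FPKM in each library, and their summed level was 216 FPKM in the A375-VR library and 94.0 FPKM in the A375 library. Most of that sum was SOX10, at 150 and 65.3 FPKM in the A375-VR and A375 libraries. MITF, another regulator of the lineage, went the other way, with 3.47 FPKM in the A375-VR library and 6.47 FPKM in the A375 library, and TYR was listed at 0 in both. None of the 6 male germ cell markers reached 1 FPKM, and PRM1, PRM2, TNP1, ACR and ZPBP were listed at 0 in both libraries.

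Most cancer-testis genes at 1 FPKM or more in 1 library were so in the other too. The same overlap over all genes was not counted. By the threshold given below, 17.4% of the members at this level were 2-fold higher in the A375-VR library, beside 3.14% of all genes. At 1 FPKM or more there were 22 members in the A375-VR library and 21 in the A375 library, and 20 of them were the same genes. These were 30.1% and 28.8% of the members in the A375-VR and A375 libraries, beside 52.15% and 50.08% of all genes. In at least 1 library, 23 members and 10761 of all genes were at this level. CTAG1A and PAGE1 reached 1 FPKM only in the A375-VR library, and MAGEB2 only in the A375 library. The 73 members together made up 0.499% of the FPKM sum in the A375-VR library and 0.475% in the A375 library. A single gene, MAGEA4, gave 31.7% of the members' sum in the A375-VR library and 35.8% in the A375 library. At the other end, 32 members were listed at 0 in both libraries, and 18 were above 0 but under 1 FPKM in both. Of all 20344 genes, 4940 and 4643 were at these levels.

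**Figure D1:**
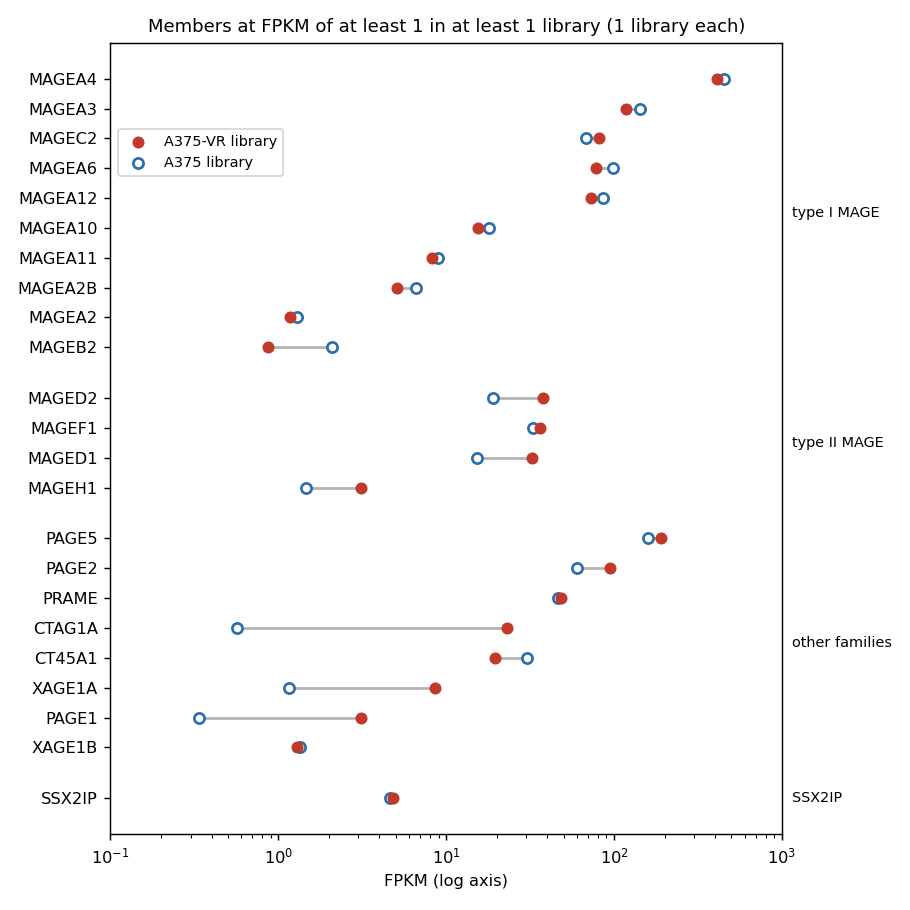
FPKM on a log axis for the 23 members with at least 1 FPKM in at least 1 library, with filled points for the A375-VR library and open points for the A375 library. The points of most genes nearly coincide, while those of CTAG1A (23.1 against 0.565 FPKM), XAGE1A (8.58 against 1.15 FPKM) and PAGE1 (3.11 against 0.338 FPKM) lie far apart.

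A member was called 2-fold apart at a difference of log2(FPKM + 1), A375-VR minus A375, of at least 1 in size, among genes with at least 1 FPKM in at least 1 library. Of the 23 members that passed, 4 were higher in the A375-VR library by 2-fold or more (17.4%), beside 3.14% of the 10761 genes that passed. None was lower by as much, beside 0.613% of all genes, and in either direction 3.75% of all genes were called. The median difference was 0.05 over the members and 0.10 over all genes, and it was 0.01 without SSX2IP. Above 0 lay 52.2% of these members and 60.3% of all genes past the filter. Scaling by the trimmed mean of log ratios moved the median of all genes to -0.03, and it called 259 genes higher and 119 lower in place of 338 and 66. It left 3 members 2-fold higher (MAGED1 dropped out) and none 2-fold lower. The 4 members called were CTAG1A, XAGE1A, PAGE1 and MAGED1. MAGED1 lay just inside the threshold with a difference of 1.03, and MAGED2 just outside it with 0.96.

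**Figure D2:**
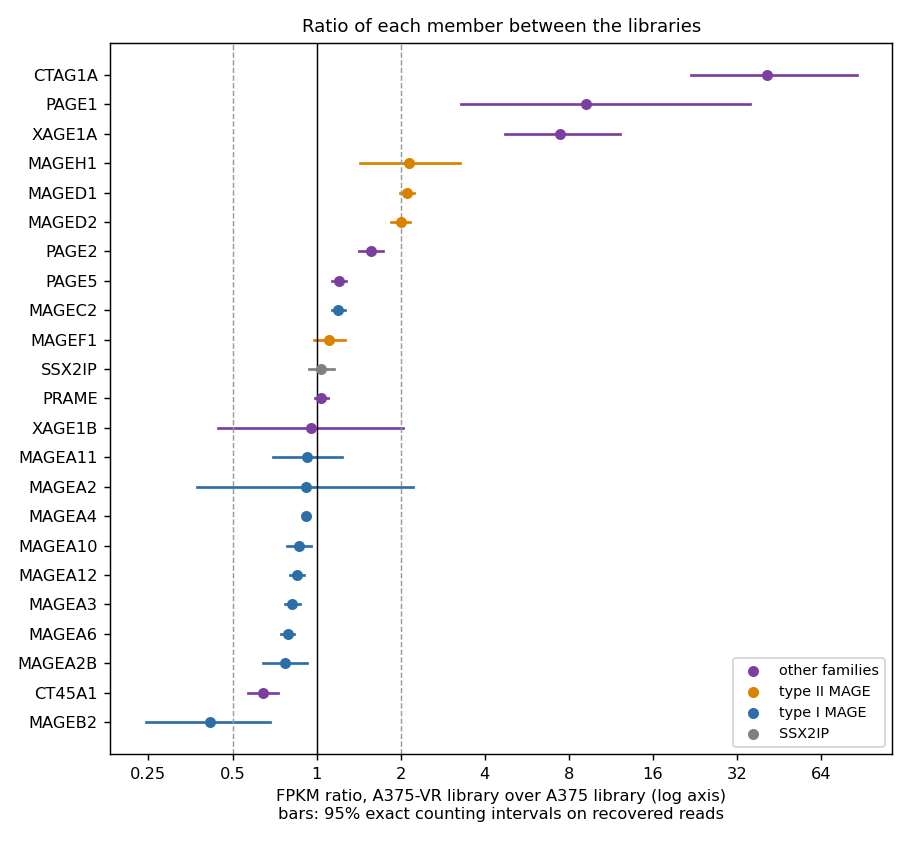
Plain FPKM ratios of the 23 members, A375-VR library over A375 library, on a log axis with 95% exact counting intervals. The dashed lines mark ratios of 0.5 and 2; the type I MAGE genes lie near or below 1 except MAGEC2, at 1.20, and CTAG1A lies farthest out at 40.8.

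CTAG1A (Entrez 246100) showed the largest difference of any member. It encodes NY-ESO-1, an antigen recognised by antibodies and T cells of many patients with melanoma. It lies on chromosome X at 153813397 to 153815075 on the plus strand of GRCh37. CTAG1A had 23.1 FPKM in the A375-VR library and 0.565 FPKM in the A375 library, from 377 and 10 recovered reads. The ratio was 40.8 (22.0 to 85.9), and the difference of log2(FPKM + 1) was 3.94. CTAG1B (Entrez 1485) encodes the same antigen and lies nearby on the minus strand at 153845865 to 153847533. It had 0.366 FPKM in the A375-VR library and 0.169 FPKM in the A375 library, from 6 and 3 recovered reads, with a ratio of 2.17 (0.463 to 13.4). Every 150-base window of the CTAG1B transcripts in GENCODE is also found in CTAG1A transcripts, and 998 of the 1008 of CTAG1A are found in another gene, so few reads of this length can be placed at CTAG1A and none at CTAG1B alone. Summed over both copies, 383 reads in the A375-VR library stood against 13 in the A375 library, a ratio of 31.9 (18.4 to 60.5). The related antigen gene CTAG2 shares only 1.61% of its windows with these copies. It had 0.0613 FPKM in the A375-VR library and 0.113 FPKM in the A375 library, from 1 and 2 reads.

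The XAGE family held the next largest difference of log2(FPKM + 1), 2.15 for XAGE1A. XAGE1A (Entrez 653220) had 8.58 FPKM in the A375-VR library and 1.15 FPKM in the A375 library, from 151 and 22 recovered reads, a ratio of 7.44 (4.74 to 12.2). XAGE1B (Entrez 653067) had 1.29 FPKM in the A375-VR library and 1.35 FPKM in the A375 library, from 15 and 17 reads, a ratio of 0.956 (0.445 to 2.04) whose interval held 1. All windows of XAGE1A and 93.5% of those of XAGE1B occur in transcripts of other genes, among them XAGE1C, XAGE1D and XAGE1E on GRCh37, which makes the division between these copies uncertain. Their summed level was 9.87 FPKM in the A375-VR library and 2.50 FPKM in the A375 library, a ratio of 3.94. XAGE2 and XAGE3 stayed under 1 FPKM in both libraries, and XAGE5 was listed at 0. XAGE1A is annotated on chromosome X at 52255219 to 52260363, minus strand, on GRCh37; RefSeq places it on the plus strand of GRCh38.p14.

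PAGE genes are small relatives of GAGE and XAGE on the short arm of chromosome X. The 3 that passed the filter all had more transcript in the A375-VR library, beside 60.3% of all genes. PAGE1 (Entrez 8712) lies on chromosome X between 49452050 and 49460587 on the minus strand. It had 3.11 FPKM in the A375-VR library and 0.338 FPKM in the A375 library, from only 34 and 4 reads, a ratio of 9.21 (3.28 to 35.7). PAGE2 had 94.2 FPKM in the A375-VR library and 60.2 FPKM in the A375 library, a ratio of 1.56 (1.42 to 1.72). PAGE5, the second most abundant member in both libraries, had 191 FPKM in the A375-VR library and 159 FPKM in the A375 library, a ratio of 1.20 (1.13 to 1.28). PAGE1 and PAGE5 share no 150-base window with another gene, and PAGE2 shares 4.32% of its windows, with PAGE2B. PAGE2B had 0.240 FPKM in the A375-VR library and 0.554 FPKM in the A375 library, from 2 and 5 reads. PAGE3 and PAGE4 were listed at 0 in both libraries.

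Promoter windows of some of the genes named above are shown. Members with large and small differences can then be compared by their CG dinucleotides, the sites of DNA methylation, printed in capitals. Each window runs from 250 bases before to 50 after a RefSeq start site, on GRCh38.p14, and reads 5′ to 3′ on the strand of the gene. XAGE1A is at chrX:52495627-52495926 (plus strand), PAGE1 at chrX:49695935-49696234 (minus strand), PAGE5 at chrX:55220096-55220395 (plus strand) and MAGEA3 at chrX:152698544-152698843 (plus strand).
XAGE1A: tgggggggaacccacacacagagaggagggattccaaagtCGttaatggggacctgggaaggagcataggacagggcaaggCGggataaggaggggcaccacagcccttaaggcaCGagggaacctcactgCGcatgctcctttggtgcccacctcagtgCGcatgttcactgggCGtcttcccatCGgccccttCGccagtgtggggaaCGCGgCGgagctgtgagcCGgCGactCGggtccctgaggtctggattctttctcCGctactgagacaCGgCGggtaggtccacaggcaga
PAGE1: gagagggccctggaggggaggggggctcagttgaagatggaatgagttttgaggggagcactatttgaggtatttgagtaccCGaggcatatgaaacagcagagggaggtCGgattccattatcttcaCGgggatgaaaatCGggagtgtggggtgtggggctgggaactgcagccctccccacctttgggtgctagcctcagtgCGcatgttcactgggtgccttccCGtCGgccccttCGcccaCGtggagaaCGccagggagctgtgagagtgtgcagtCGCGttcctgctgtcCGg
PAGE5: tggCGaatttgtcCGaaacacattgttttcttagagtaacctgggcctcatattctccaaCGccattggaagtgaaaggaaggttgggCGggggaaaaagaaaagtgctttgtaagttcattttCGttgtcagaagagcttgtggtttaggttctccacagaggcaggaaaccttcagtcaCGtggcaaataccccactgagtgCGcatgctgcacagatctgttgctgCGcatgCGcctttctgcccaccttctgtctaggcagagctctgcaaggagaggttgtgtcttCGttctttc
MAGEA3: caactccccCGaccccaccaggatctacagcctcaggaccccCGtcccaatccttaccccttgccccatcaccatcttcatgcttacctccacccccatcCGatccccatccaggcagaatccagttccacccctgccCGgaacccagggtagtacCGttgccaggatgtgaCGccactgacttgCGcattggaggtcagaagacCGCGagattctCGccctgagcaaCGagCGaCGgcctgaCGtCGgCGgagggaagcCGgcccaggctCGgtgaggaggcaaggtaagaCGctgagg

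The 4 windows hold 17 CG in XAGE1A, 13 in PAGE1, 10 in PAGE5 and 19 in MAGEA3. Among these 4 alone, the genes with a large difference (XAGE1A and PAGE1) lie between those with a small one. MAGED1, also called 2-fold higher but not shown, has windows with 10 and 20 CG, so that order does not hold with it. A further XAGE1A window, not shown, has 15. Over the 33 windows of 20 members past the filter the median was 14, the same as over 35116 windows of all genes. CTAG1A, MAGEA10 and MAGEH1, the other members past the filter, had no window, so the member with the largest difference, CTAG1A, could not be compared. The XAGE1A window shown is the same in all 300 bases as a window of XAGE1B, and the MAGEA3 window as that of MAGEA6. XAGE1A and XAGE1B had ratios of 7.44 and 0.956, but the division of reads between these copies is uncertain. That window can therefore not be set against the ratio of either copy. Motifs were searched on both strands. CCGGAA, the core bound by ETS factors, was found in 18.2% of the 33 windows and 17.25% of all windows. GGGCGG, bound by SP1, was in 42.4% of the 33 and 44.95% of all. CACGTG, an E-box, was in 2 of the 33 (PAGE1 and PAGE5; 6.06%) and in 7.26% of all. TCACNCCAC, written after a sterol response element, was in 0 of the 33 and in 1.13% of all windows. The 87 windows of all 64 members with a window differed more from all genes. CACGTG was in 21.84% of the 87, mostly windows of GAGE genes, CCGGAA in 10.34% and GGGCGG in 35.63%. Most of the GAGE windows are the same in all 300 bases as another GAGE window. This repeated sequence was counted many times in each of these shares, so the windows are not independent. Overlapping hits of different motifs were counted separately, and these matches describe letters only.

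Among type II MAGE genes, the 4 past the filter all had differences above 0, toward the A375-VR library, and their median was 0.85. So few genes say little here, since 60.3% of all genes past the filter lay above 0. MAGED1 (Entrez 9500), known as NRAGE and tied to neurotrophin receptor signalling and apoptosis, had 32.3 FPKM in the A375-VR library and 15.3 FPKM in the A375 library, from 3195 and 1643 reads. Its ratio was 2.11 (1.98 to 2.24), and it lies on chromosome X at 51546103 to 51645450, plus strand. MAGED2, whose loss causes a transient antenatal Bartter syndrome, had 37.9 FPKM in the A375-VR library and 18.9 FPKM in the A375 library, a ratio of 2.00 (1.85 to 2.16). MAGEH1 had 3.12 FPKM in the A375-VR library and 1.46 FPKM in the A375 library, from 75 and 38 reads, a ratio of 2.14 (1.43 to 3.25). MAGEF1, which lies on chromosome 3, had 36.4 FPKM in the A375-VR library and 32.8 FPKM in the A375 library. The interval of its ratio of 1.11 (0.975 to 1.26) held 1. At 2 times the recovered reads, the multiple that fits its exon length, the interval ran between 1.01 and 1.21. Its difference turned to just under 0 with the trimmed mean. None of these 4 shares a 150-base window with another gene. MAGEE1 stayed under 1 FPKM. MAGEE2 and the copies MAGED4 and MAGED4B were listed at 0 in both libraries.

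Among type I MAGE genes, 9 of the 10 past the filter had differences below 0, toward the A375 library, beside 4268 of all 10761 genes. The 9 include the near copies MAGEA3 and MAGEA6, and MAGEA2 and MAGEA2B, which are not independent. The 10 had a median of -0.21. None was 2-fold apart on the scale with the pseudocount, beside 3.75% of all genes, though MAGEB2 (-0.73) had a plain ratio under 0.5. This direction held for all 9 with each scaling tried. MAGEA4 (Entrez 4103; chromosome X, 151080967 to 151093643, plus strand), a widely expressed tumour antigen and T cell therapy target, was the most abundant member, at rank 61 of all genes in the A375-VR library and rank 62 in the A375 library. It had 412 FPKM in the A375-VR library and 451 FPKM in the A375 library, a ratio of 0.914 (0.897 to 0.931). An antisense transcript, MAGEA4-AS1, overlaps it, and whether counting used strand is not given in the sources used here. MAGEA3, whose protein directs TRIM28 to its targets, had 117 FPKM in the A375-VR library and 144 FPKM in the A375 library, a ratio of 0.818 (0.768 to 0.872). MAGEA6 had 77.8 FPKM in the A375-VR library and 98.6 FPKM in the A375 library, a ratio of 0.789 (0.748 to 0.832). These near copies share 32.9% of MAGEA3 windows and 39.1% of MAGEA6 windows, and their summed FPKM had a ratio of 0.806.

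The 8 MAGEA genes past the filter stood in the same order in both libraries, with differences from -0.34 to -0.07. MAGEA12 had 72.8 FPKM in the A375-VR library and 85.6 FPKM in the A375 library, and MAGEA10 had 15.5 and 17.9 FPKM in the A375-VR and A375 libraries. MAGEA11, known as a coregulator of the androgen receptor, had 8.25 FPKM in the A375-VR library and 8.91 FPKM in the A375 library, with a ratio whose interval (0.696 to 1.23) held 1. MAGEA2 had 1.18 FPKM in the A375-VR library and 1.28 FPKM in the A375 library, and its copy MAGEA2B had 5.10 and 6.61 FPKM in the A375-VR and A375 libraries. They share 83.7% and 74.1% of their windows, and their summed FPKM had a ratio of 0.795. MAGEA1, the first member of the family to be cloned, had 0.213 FPKM in the A375-VR library and 0.263 FPKM in the A375 library. MAGEA8, MAGEA9 and MAGEA9B were listed at 0 in both libraries. Summed over the family, MAGEA transcripts came to 711 FPKM in the A375-VR library and 814 FPKM in the A375 library.

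MAGEC2 was the exception among type I genes. This antigen, another partner of TRIM28, had 81.8 FPKM in the A375-VR library and 68.5 FPKM in the A375 library, a ratio of 1.20 (1.13 to 1.26). MAGEC1 had 0.0855 FPKM in the A375-VR library and 0.210 FPKM in the A375 library, and MAGEC3 had 0.0881 and 0.142 FPKM in the A375-VR and A375 libraries. MAGEB2 (Entrez 4113) had 0.869 FPKM in the A375-VR library and 2.09 FPKM in the A375 library, from 23 and 60 reads. Its ratio was 0.415 (0.245 to 0.682), under 0.5, though with the pseudocount of 1 its difference of -0.73 did not count as 2-fold. Of the 11 MAGEB genes, 7 were listed at 0 in both libraries.

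PRAME and CT45A1 are the remaining members above 1 FPKM. PRAME (Entrez 23532), a repressor of retinoic acid receptor signalling and a substrate adaptor of a cullin ubiquitin ligase, lies on chromosome 22 at 22890123 to 22901768, minus strand. It had 48.5 FPKM in the A375-VR library and 46.6 FPKM in the A375 library. With 3009 and 3133 reads its ratio of 1.04 (0.990 to 1.09) was among the most closely bounded, and its interval held 1. CT45A1, a member of a cluster of near copies on Xq, had 19.5 FPKM in the A375-VR library and 30.4 FPKM in the A375 library, a ratio of 0.642 (0.568 to 0.725). It shares 75.4% of its windows with other genes, and the 9 CT45A rows of the files summed to 36.6 FPKM in the A375-VR library and 57.5 FPKM in the A375 library, a ratio of 0.638. SSX2IP, a centrosome and cell adhesion protein gene on chromosome 1, had 4.80 FPKM in the A375-VR library and 4.61 FPKM in the A375 library.

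GAGE, SSX and CTCFL had little or no assigned signal in either library. The 13 GAGE rows summed to 1.15 FPKM in the A375-VR library and 0.336 FPKM in the A375 library, and 10 of these rows were listed at 0 in both. GAGE13 had 0.918 FPKM in the A375-VR library, from at least 4 reads, and was listed at 0 in the A375 library. The 8 SSX rows, whose genes include the fusion partners of SS18 in synovial sarcoma, summed to 0.281 FPKM in the A375-VR library and 0.0930 FPKM in the A375 library. CTCFL, the testis paralogue of the insulator protein CTCF, was listed at 0 in the A375-VR library and at 0.0126 FPKM in the A375 library. Among the 18 members above 0 but under 1 FPKM, none had a ratio whose interval on the recovered reads left out 1. With reads at the multiple that fits the exon length, 1 did, GAGE13, with 8 reads in the A375-VR library and 0 in the A375 library.

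Levels of 0 need care in these families, because a read that matches several copies can be dropped, or given to 1 of them, in counting. Of the 32 members listed at 0 in both libraries, 13 share over 90% of their 150-base windows with another gene, among them MAGED4, MAGEA9, SSX4 and most GAGE12 rows, and 12 share none. For the 13, discarded reads and no transcript cannot be told apart. GAGE12B has no annotated transcript of 150 bases. Of the 23 members past the filter, 12 share no window.

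**Figure D3:**
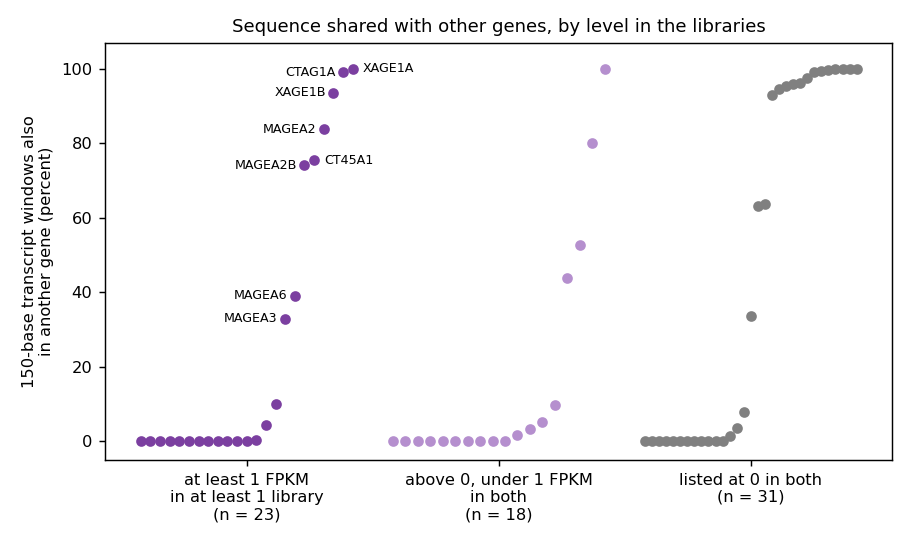
Share of the 150-base windows of each member's GENCODE transcripts that also occur in transcripts of another gene, by the member's level in the libraries; each point is 1 member, and GAGE12B, with no such window, is left out. Members listed at 0 in both libraries fall mostly at the ends, 12 at 0% and 13 above 90%, and CTAG1A and XAGE1A are near or at 100%.

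Along chromosome X the members of the short and the long arm differed, but arm and family cannot be told apart here. The PAGE, XAGE and MAGED members compared, MAGEH1 and MAGEB2 all lie on Xp. Those of MAGEA, with MAGEC2, CT45A1 and CTAG1A, all lie on Xq. Arms were divided at the centromere gap of the GRCh37 sequence, a split chosen after the values were seen. On Xp, 7 of the 9 members compared lay above 0, with a median difference of 0.74, beside 94 of 144 other Xp genes with a median of 0.17. On Xq, 2 of 11 members did, CTAG1A and MAGEC2, with a median of -0.20, beside 147 of 214 other Xq genes with a median of 0.20. The 2-fold threshold was passed upward by 3 of the 9 Xp members and 1 of the 11 Xq members, against 2.08% of other Xp genes and 3.27% of other Xq genes. Several of these members are near copies of each other and are not independent.

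**Figure D4:**
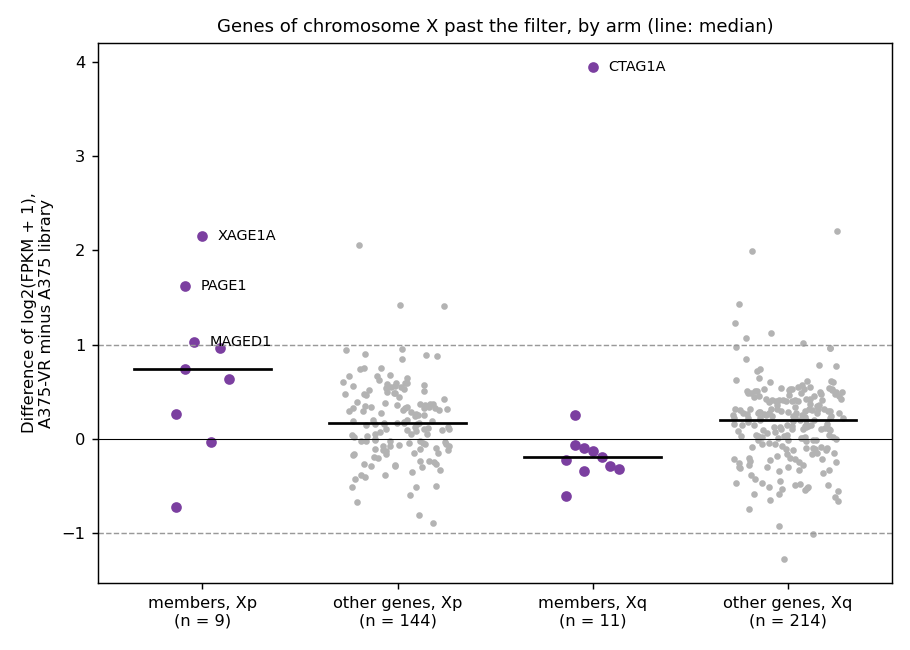
Difference of log2(FPKM + 1), A375-VR minus A375, for genes of chromosome X past the filter, split into members and other genes of each arm; lines are medians and dashed lines mark 2-fold. The 9 Xp members spread from -0.73 to 2.15, and 9 of the 11 Xq members lie below 0 while CTAG1A stands alone at 3.94.

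No gene compared around CTAG1A had a difference as large as its own. Within 250 kb, 17 of the 19 genes outside the rule passed the filter, with a median difference of 0.27. Of these 10 were above 0 and 7 below. DKC1, a component of telomerase, had the lowest difference of the 17, with 61.8 FPKM in the A375-VR library and 91.2 FPKM in the A375 library. Among the 10 above 0, PLXNA3 had a ratio of 2.30 (1.63 to 3.28) and DNASE1L1 of 1.72 (1.38 to 2.15). Near PAGE1, USP27X and CLCN5 had ratios of 1.19 (0.871 to 1.63) and 2.11 (1.73 to 2.57). Near MAGED1, GSPT2 had a ratio of 1.29 (1.06 to 1.57), and no gene outside the rule lay within that distance of XAGE1A.

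Other testis-restricted cancer-testis genes, from a list made for this comparison, went both ways. Of 58 listed, 17 passed the filter, 11 above 0 and 6 below, and had a median of 0.12. Only SPANXC was called higher (5.88%, beside 3.14% of all genes). CSAG2 alone was called lower, beside 0.613% of all genes. Calls this few say little about the list. IL13RA2, a decoy receptor for interleukin-13, had 332 FPKM in the A375-VR library and 170 FPKM in the A375 library, a ratio of 1.95 (1.88 to 2.02). TSSK6, a testis kinase, had 2.04 FPKM in the A375-VR library and 0.775 FPKM in the A375 library. SPANXC had 4.24 FPKM in the A375-VR library and 1.60 FPKM in the A375 library from 27 and 11 reads, and the summed FPKM of the 10 SPANX rows had a ratio of 1.49. CSAG2, in the MAGEA cluster, had 1.40 FPKM in the A375-VR library and 4.82 FPKM in the A375 library, but summed with its copy CSAG3 the FPKM ratio was 1.10. Of 28 germline genes outside these families only NANOS1 passed the filter, with 2.70 FPKM in the A375-VR library and 4.30 FPKM in the A375 library.

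Genes of DNA methylation and repressive chromatin, a list that also holds the demethylases TET2 and TET3, lay on both sides of 0. Of 34 listed, 31 passed the filter, 11 were above 0 and 20 below, and the median was -0.11. Above 0 were 60.3% of all genes past the filter. UHRF1 was the only gene of the list called 2-fold lower on the scale with the pseudocount, beside 0.613% of all genes. It guides DNMT1 to replicating DNA. UHRF1 had 17.8 FPKM in the A375-VR library and 41.3 FPKM in the A375 library, a ratio of 0.432 (0.406 to 0.458). DNMT1, the maintenance methyltransferase, had 28.5 FPKM in the A375-VR library and 43.2 FPKM in the A375 library. HELLS, a remodeller needed for DNA methylation, had 4.10 and 8.43 FPKM in the A375-VR and A375 libraries. Its plain ratio was 0.486 (0.404 to 0.584). SUV39H1, a histone H3 lysine methyltransferase, had a ratio of 0.603 (0.540 to 0.672). UHRF1, DNMT1 and HELLS also act in DNA replication. Cancer-testis genes of dividing cells were below 0 in 8 of 12, with a median of -0.30, among them ATAD2 at a ratio of 0.567 and OIP5 at 0.561, while the histone demethylase KDM5B had 5.16 FPKM in the A375-VR library and 2.09 FPKM in the A375 library. The part of any of these in the members' values was not tested.

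**Figure D5:**
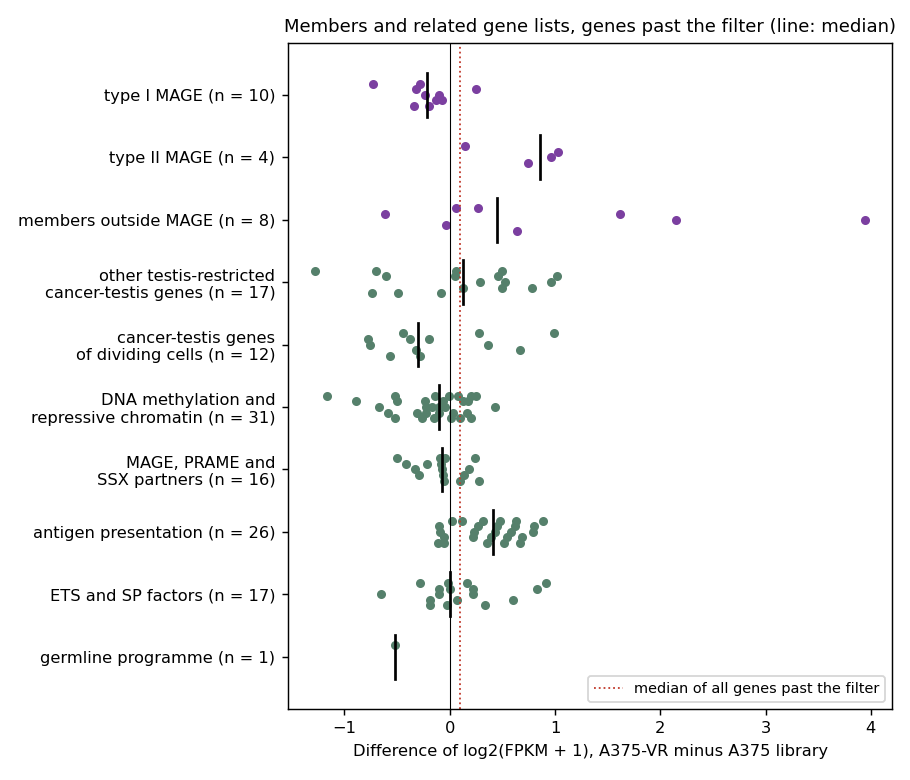
Difference of log2(FPKM + 1), A375-VR minus A375, for the members by class and for the related lists, genes past the filter only; solid lines are medians and the dotted line is the median of all genes (0.10). Type I MAGE genes centre on -0.21 and type II on 0.85, and the antigen presentation list centres on 0.41.

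Partners of MAGE and PRAME proteins lay more often below 0 than above. Of 18 listed, 16 passed the filter, 5 above 0 and 11 below, and the median was -0.07. Above 0 were 60.3% of all genes past the filter. None of the 16 was 2-fold apart, beside 3.75% of all genes, and with so few genes this says little. TRIM28, the ubiquitin ligase bound by MAGEA3 and MAGEC2, had 211 FPKM in the A375-VR library and 298 FPKM in the A375 library, a ratio of 0.708 (0.693 to 0.723). NSMCE4A, RBX1 and ELOC had ratios of 0.737, 0.786 and 0.814. Factors of the ETS and SP families had a median of 0.00 over 17 genes. ETV1 and ELF1 had ratios of 2.06 (1.89 to 2.24) and 1.86 (1.69 to 2.05), ETV5 of 1.56 (1.45 to 1.69), and ETS1 of 0.608 (0.558 to 0.661). Antigen presentation genes, which determine whether peptides of these antigens reach the cell surface, had a median of 0.41. Of these, 21 of 26 were above 0, beside 60.3% of all genes. None was 2-fold apart on the scale with the pseudocount, beside 3.75% of all genes. HLA-B had 25.1 FPKM in the A375-VR library and 13.2 FPKM in the A375 library, TAP1, a subunit of the peptide transporter, had 7.98 and 4.57 FPKM in the A375-VR and A375 libraries, and TAPBP and CIITA had ratios of 1.84 and 2.48.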

How the data were processed

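RNA levels of 2 of the 3 samples were analysed, 1 library each, grouped by their titles. Per the series design text, stranded TruSeq mRNA libraries were read as 150 bp pairs on a HiSeq 2000 and aligned to GRCh37 with TopHat 1.3.3. Which tool, annotation, filters and strand setting were used to count is not given in the sources used here. Each deposited table holds FPKM, as the submitters named it, with 1 value per row and zeros included.

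From these FPKM values, log2(FPKM + 1) was taken and the A375 value subtracted from the A375-VR value, for genes with at least 1 FPKM in at least 1 library; a difference understates the change of low genes. Ratios are plain FPKM ratios. Totals were recovered from the values: 274 genes with equal reads gave the ratio of the totals, and the common factor of 3 was the one that divided 94.1% of 7545 recovered lengths (33.3% would by chance). Reads are the smallest whole numbers that give a gene's FPKM, whole for 100% of 15404 genes above 0 (relative tolerance 1e-11; the length is fitted, so this is partly built in). Reads were also multiplied by the whole number that brings the recovered length to within 10% of the GENCODE exon length. Copies with unequal multiples were summed as FPKM. These steps rest on Python 3.11.15 and scipy 1.17.1. Totals, reads and 2-fold calls were tested on simulated data.

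Gene positions are from GENCODE v44 on GRCh37, matched by symbol or Entrez number for all 73 members. Shared sequence is the share of 150-base transcript windows also found in another gene. Promoter windows are from RefSeq on GRCh38.p14, matched for 64 members. All members past the filter are named, and of each other list up to 4 genes with the largest difference; DKC1, the other neighbours, the copies' sums and the marker genes beyond that rule were picked with their values in view. The members and lists were chosen with earlier results of these data known. Alternatives were another pseudocount, other filters, 3 other scalings, summed copies and leaving out SSX2IP. No table of proteins was used. A result for 1 neighbouring gene is not reported here.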

Additional observations from a re-analysis of the deposited data

How the results depend on the processing

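With 1 library per group no replicate could be left out, and depth limits the members under 1 FPKM, whose true counts are not known. The count of members at least 2-fold higher was 3 to 6 under all alternatives. Members at least 2-fold lower, 0 as reported, were 1 with a pseudocount of 0.1, 1 after rescaling to a common sum and 1 (MAGEB2) by a plain ratio of at most 0.5. Type I MAGE genes had a median of -0.063 without a filter and -0.36 with the trimmed mean. Members counted in the A375 library were 34 at 0.1 FPKM (46.6%, beside 63.9% of all genes). Above 0 they were 36 in the A375-VR library (49.3%, beside 72.7% of all genes). In the A375 library 40 were above 0 (54.8%, beside 71.8% of all genes). All genes at least 2-fold apart, 338 higher and 66 lower, became 689 and 140 with a pseudocount of 0.1 and 802 and 150 after rescaling to a common sum. That rescaling kept the filter and the pseudocount at 1, and 31 members and 12554 genes passed the filter, in place of 23 and 10761. Of 23 members, 20 kept 1 sign under all alternatives run for single genes; MAGEF1, PRAME and SSX2IP did not. On the recovered reads, 17 of 23 members had an interval that left out 1, close to the share of all genes past the filter, 70.0%. With reads at the multiple that fits the exon length it was 18 of 23 members. Among the 18 members under 1 FPKM it was 1 (GAGE13) in place of 0. Those multiples, summed copies and plain ratios were chosen after seeing the data. Joining copies by protein identity was not run, and copies were joined at 50% shared windows instead. No paired analysis was possible because each group has 1 library. The cause of these moves was not tested.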
